A study of Mus musculus with 12 samples.

Results

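The genes described here are the nuclear genes for subunits of the mitochondrial respiratory chain and ATP synthase, in the cortex of C57BL/6 mice with 3 genotypes at Mir137. They were chosen by name, with the patterns Nduf a, b, c, s or v plus a digit, Sdha to Sdhd, Uqcr, Cox4 to Cox8 and Atp5. Of 23951 table rows, 84 carried such a name, and the 82 with at least 1 RPKM (reads per kilobase of transcript, scaled to the mapped reads of the library) in any genotype are the members, among 13815 genes at that level. They divide into 37 names of complex I, 4 of complex II, 8 of complex III, 16 of complex IV and 17 of complex V. A few names are not textbook subunits: Atp5s, Atp5sl, Cox7a2l and Ndufa4l2. Ndufa4, listed by its name with complex I, is now placed in complex IV.

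The groups were wildtype mice (WT), mice labelled miR-137/+ (Het) and mice labelled miR-137 KO (KO), with 4 RNA sequencing libraries each, 12 in all. The sources used here give neither age, sex nor the design of the deleted allele. The deposited tables hold 1 RPKM value per genotype for its 4 libraries together, so no value below has a replicate error, and the depth per library is unknown. A gene is called higher or lower where the q-value (adjusted p) of the authors' deposited table is below 0.05. Library titles are numbered in pairs within each genotype, and no label says that the 4 libraries came from separate animals. How the authors' test used the libraries is not given. Its p-values measure at most a spread between libraries, which may be technical. Het and KO were each compared with the same WT libraries, so those 2 comparisons are not independent. In bulk tissue, more cells of a type and more RNA per cell cannot be told apart.

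The respiratory chain is the set of protein complexes in the inner mitochondrial membrane that turns the energy of food into ATP. Complex I takes electrons from NADH, complex II takes them from succinate, complex III passes them to cytochrome c and complex IV hands them to oxygen. Complexes I, III and IV pump protons, and complex V, ATP synthase, uses the proton gradient to make ATP. Most subunits are encoded in the nucleus and imported, and complexes I, III, IV and V also hold subunits from mitochondrial DNA, while complex II holds none. Neurons depend on this pathway for the ATP that ion pumping and synaptic transmission use.

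miR-137 is the microRNA that the Mir137 gene encodes, and its seed, the bases that pair with a target messenger RNA, is what decides which 3′ untranslated regions (UTRs) could hold a match. The mature sequence is shown with the seed, bases 2 to 8, in capitals. It lies at chr3:118433901-118433923 on the plus strand (RefSeq, GRCm38.p6).
mmu-miR-137-3p: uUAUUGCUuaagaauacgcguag

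The letters that pair with the seed, AGCAATA, were present in the annotated 3′ UTR of 4 of the 82 members (4.88%). Among 12974 annotated genes of at least 1 RPKM, 1468 had them (11.3%). The members' 3′ UTRs were also short, with a median of 157 nt against 873 nt over those genes. The 4 members with a match are printed because they are the only ones whose 3′ UTR holds these letters in this annotation, with the letters in capitals and flanking bases in lower case, read from GRCm38.
Ndufa3: gaggtgggAGCAATAaacggtg
Ndufb8: tataagaaAGCAATAacagtca
Cox6a2: tttatacaAGCAATAcattgaa
Atp5g1: accaagggAGCAATAgattaac
The matched letters are at chr7:3620297-3620303 (plus strand) for Ndufa3, chr19:44548804-44548810 (minus) for Ndufb8, chr7:128205456-128205462 (minus) for Cox6a2 and chr11:96070565-96070571 (minus) for Atp5g1, whose 3′ UTR holds 2 matches, 1 of them shown. In KO against WT the log2 differences of these genes were 0.35, 0.22, -0.15 and 0.28, and Ndufa3 alone of the 4 was called (q = 0.0441 in the authors' deposited table). The other 24 members called in KO had no such letters in their annotated 3′ UTR. A match is a description of letters, and binding was not measured.

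Many more members were higher than lower in both mutant genotypes, with modest differences. In KO against WT, 25 of 82 members were called higher (30.5%) and 0 lower. Across all 13603 genes tested in that table, 6.84% were called higher and 7.67% lower. At an unadjusted p below 0.05 in the authors' deposited table, 42 members were higher (51.2%, against 13.5% of all genes) and 0 lower in KO. The folds of the 25 called members ran from 1.28 to 1.56. The median log2 difference over the 82 members was 0.27, on the scale of log2(RPKM + 1), and 71 were above 0, against 51.6% of all genes. The summed RPKM of the members was 18178 in WT, 20953 in Het and 22252 in KO.

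In Het against WT, 5 of 82 members were called higher (6.10%) and 0 lower, on a background of 3.99% higher and 5.11% lower among 13625 genes. At an unadjusted p below 0.05 in the authors' deposited table, 28 were higher (34.1%, against 9.34% of all genes) and 0 lower. The median log2 difference was 0.18 and 74 members were above 0, against 52.0% of all genes. The 5 called in Het were Ndufa1, Ndufb2, Ndufs4, Uqcr11 and Atp5e, and 4 of them, all but Ndufs4, were also called in KO.

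KO against Het gave no called member in either direction, on a background of 0.929% higher and 0.981% lower among 13558 genes. By the test in the authors' deposited table, 4 members were higher at an unadjusted p below 0.05 and 0 lower: Ndufa2, Ndufa5, Ndufb7 and Ndufs6. The share of all genes higher at that level was 4.90%, and 4.88% of the members were. The median log2 difference was 0.07 and 59 members were above 0.

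**Figure D1:**
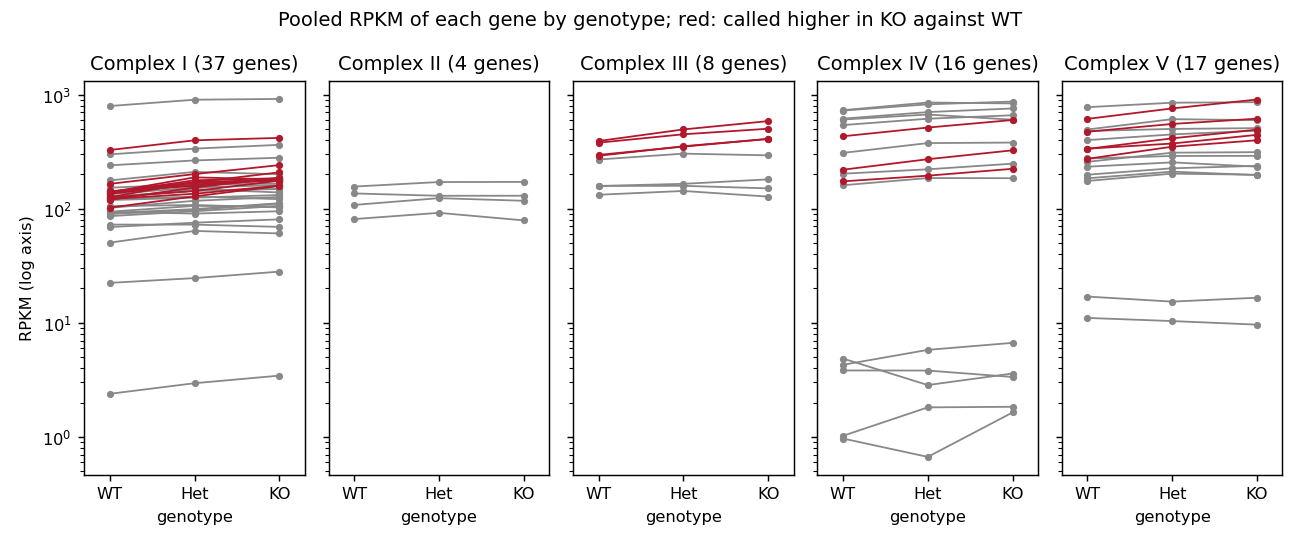
Pooled RPKM (log axis) of each of the 82 genes in WT, Het and KO, 1 panel per complex, with 1 line per gene and red lines for genes called higher in KO against WT. The red lines lie among genes above 100 RPKM in WT, and none is in the panel of complex II; each point is 1 pooled value with no error bar.

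Complex I, the largest complex, had 13 of 37 members called higher in KO and 3 in Het, with median log2 differences of 0.29 and 0.18. Its 7 nuclear core subunits carry the flavin and iron-sulphur clusters or line the route to quinone, and the median of their log2 differences in KO was 0.28. Of these, Ndufs3, which lies beside the quinone site, was called, with 122 RPKM in WT, 135 in Het and 159 in KO (q = 0.0146 for KO in the authors' deposited table). Ndufs1, which holds iron-sulphur clusters, stood at 72.6, 72.6 and 69.3 RPKM. The core genes thus included a called member and another whose log2 difference in KO was -0.07.

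Among the 28 accessory subunits of complex I, which surround the core and are needed for its assembly and stability, 12 were called in KO (median log2 difference 0.30). The highest log2 differences among the called members of the whole chain were here. Ndufa2, a thioredoxin-like subunit of the NADH-oxidising module, was at 120 RPKM in WT, 153 in Het and 187 in KO (log2 difference 0.63). Ndufs6, a zinc-binding subunit of the matrix arm, was at 102, 128 and 158 RPKM, also 0.63. Both had the smallest q of the KO table, 0.000987 in the authors' deposited table, shared by 11 of the 25 called members. For both, Het lay between WT and KO, an order that picking genes called in KO favours. Neither was called in KO against Het.

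In the matrix arm, where NADH is oxidised and quinone reduced, 7 of 16 members were called in KO. Ndufa5, of the quinone module, was at 142 RPKM in WT, 170 in Het and 208 in KO, a log2 difference of 0.55. Ndufv3, of the NADH module, was at 165, 201 and 241 RPKM (0.54). Ndufa6, a LYR-motif protein that binds the acyl carrier, was at 142, 158 and 181 RPKM, and Ndufa7 at 137.3, 171 and 180. Ndufs4, whose loss causes a Leigh-like disease in mice, showed the opposite order of mutants, with 50.5 RPKM in WT, 63.9 in Het and 60.8 in KO. It was called in Het (q = 0.0357) and not in KO (q = 0.145) in the authors' deposited tables. The difference between the 2 mutants was not called for it (q = 0.963 in the authors' deposited table). Ndufa9, also of this arm, was at 105, 108 and 103 RPKM.

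In the membrane arm, which pumps protons, 6 of 19 nuclear members were called in KO and 2 in Het. Ndufa1, a small membrane-spanning subunit, was at 139 RPKM in WT, 188 in Het and 180 in KO (q = 0.009997 for Het and 0.0370 for KO in the authors' deposited tables). Ndufb2 was at 126, 171 and 175 RPKM (q = 0.0141 and 0.0126 in the authors' deposited tables). In both genes the mutants lay close together and above WT. Ndufb7, on the intermembrane-space face, was at 126, 143 and 176 RPKM, so Het was nearer to WT. Ndufb10 was at 135, 163 and 181 RPKM, Ndufc1 at 139, 178 and 185, and Ndufa3 at 327, 398 and 418. Ndufs5, on the same side of the membrane as Ndufb7, stood at 93.9, 90.7 and 95.0 RPKM. The lowest name of complex I was Ndufa4l2, a relative of Ndufa4, at 2.39, 2.96 and 3.45 RPKM. The highest was Ndufa4, at 795, 903 and 917 RPKM and not called.

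Complex II, succinate dehydrogenase, is at once a respiratory complex and an enzyme of the citric acid cycle. None of its 4 members was called in any comparison, and none had an unadjusted p below 0.05 in the authors' deposited tables. Sdha, the flavoprotein that oxidises succinate, was at 136 RPKM in WT, 130 in Het and 130 in KO. Sdhb, the iron-sulphur subunit, was at 156, 171 and 172 RPKM. The membrane anchors Sdhc and Sdhd were at 81.1, 92.04 and 79.0 and at 108, 124 and 117 RPKM. The median log2 difference was 0.16 in Het and 0.04 in KO. With 4 genes and no test of the difference between complexes, complex II is not shown to differ from the rest.

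Complex III had 4 of 8 members called in KO and 1 in Het (median log2 differences 0.30 and 0.20). All 4 are small subunits; Uqcrb, also small, was at 270, 304 and 294 RPKM and not called. Uqcr11 was at 392 RPKM in WT, 495 in Het and 586 in KO (q = 0.0348 for Het and 0.000987 for KO in the authors' deposited tables). Uqcrq, which lies next to cytochrome b, was at 291, 353 and 409 RPKM. Uqcr10 was at 296, 350 and 410 RPKM. Uqcrh, the hinge protein at the docking site of cytochrome c, was at 379, 449 and 503 RPKM. In all 4 genes Het lay between WT and KO, an order that picking genes called in KO favours. None of the 4 was called in KO against Het. No larger subunit was called: Uqcrc1 and Uqcrc2, the core proteins on the matrix side, were at 158, 165 and 181 and at 158, 159 and 151 RPKM. Uqcrfs1, the Rieske iron-sulphur protein that hands electrons to cytochrome c1, was at 133, 143 and 128 RPKM, the lowest in complex III.

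In complex IV, cytochrome c oxidase, 3 of 16 names were called in KO and 0 in Het, where 4 were higher at an unadjusted p below 0.05 in the authors' deposited table. The medians of the log2 differences were 0.29 and 0.19. Cox5b, a zinc-binding subunit on the matrix side, was at 432 RPKM in WT, 515 in Het and 599 in KO. Cox7c, a single-span subunit, was at 220, 272 and 325 RPKM. Cox7a2l, which helps complexes III and IV join into supercomplexes and is not a subunit of the textbook enzyme, was at 174, 195 and 224 RPKM. In these 3 genes as well, Het lay between WT and KO, with the same limit, and none was called in KO against Het. With Ndufa4 counted here, 3 of 17 were called.

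Several subunits of complex IV have isoforms for different tissues, and in each pair the widely expressed form was the high one in cortex. Cox4i1 was at 725, 823 and 869 RPKM, and the oxygen-responsive Cox4i2 at 1.02, 1.82 and 1.84. Cox6a1, the highest gene of complex IV in WT, was at 731, 853 and 838 RPKM, while the muscle form Cox6a2 was at 3.83, 3.82 and 3.35. Cox6b1 was at 615, 704 and 756 RPKM, and the testis form Cox6b2 at 4.86, 2.85 and 3.60. The muscle form Cox7a1 was at 4.29, 5.79 and 6.68 RPKM beside 203, 222 and 248 for Cox7a2. Cox7b was at 161, 186 and 185 RPKM. No gene of these pairs was called. Cox8a, which spans the membrane once, was at 605, 670 and 603 RPKM, with a log2 difference of -0.01 in KO. The testis form Cox7b2, at 0.968, 0.668 and 1.64 RPKM, was just inside the minimum of 1 RPKM. Cox8b, at 0.242, 0.435 and 0.232, and Cox8c, listed at 0, 0.0374 and 0, were the only names below it.

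Complex V had 5 of 17 names called in KO and 1 in Het (median log2 differences 0.26 and 0.19). Among the 5 subunits of the F1 head and central stalk, where ATP is made, the catalytic Atp5b was the highest gene of the complex, at 776 RPKM in WT, 850 in Het and 859 in KO. Its partner Atp5a1 was at 480, 501 and 509 RPKM and the shaft subunit Atp5c1 at 276, 290 and 291. Atp5e, the small epsilon subunit of the central stalk, was the 1 called, at 274, 350 and 398 RPKM (q = 0.0344 for Het and 0.000987 for KO in the authors' deposited tables). The F1 genes thus spanned log2 differences in KO from 0.08 to 0.54, with a median of 0.14.

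All 3 genes for the small membrane subunits f, e and g of complex V were called in KO. In Het their median log2 difference was 0.30, with q from 0.0637 to 0.225 in the authors' deposited table. These subunits help ATP synthase pair up and bend the inner membrane into cristae. Atp5k (subunit e) was at 613 RPKM in WT, 757 in Het and 906 in KO, and Atp5j2 (subunit f) at 334, 414 and 493. Atp5l (subunit g) was at 473, 554 and 616 RPKM. In each, Het lay between WT and KO, an order that picking genes called in KO favours, and none was called in KO against Het. In the peripheral stalk, which holds the head still, Atp5o was called, at 336, 373 and 444 RPKM, while Atp5f1 (subunit b) was at 233, 255 and 234. The 3 genes for the proton-carrying c-ring encode the same mature protein: Atp5g1 was at 258, 310 and 313 RPKM, Atp5g2 at 175, 203 and 199, and Atp5g3 at 495, 610 and 598. None of the 3 was called, though 2 had an unadjusted p below 0.05 in Het and 2 in KO in the authors' deposited tables, and in each the 2 mutants were closer to each other than to WT. The lowest name of complex V was Atp5s, a factor B protein outside the textbook enzyme, at 11.0, 10.4 and 9.64 RPKM.

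**Figure D2:**
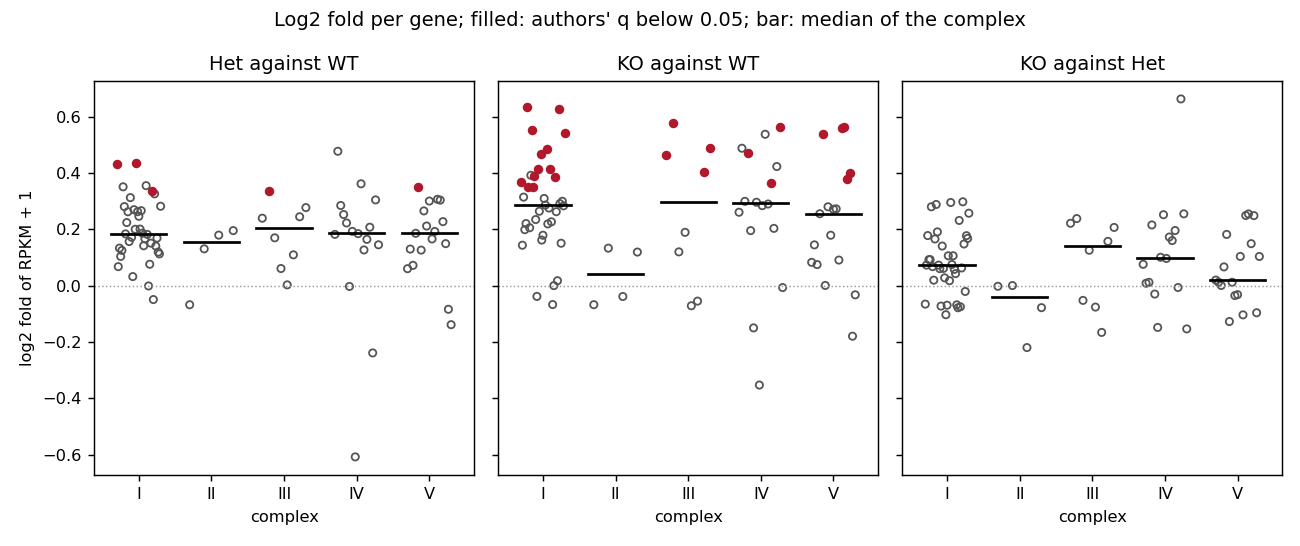
Log2 difference of RPKM + 1 for each of the 82 genes, by complex, in the 3 comparisons, with filled red points for genes with q below 0.05 in the authors' deposited tables and a black bar at the median of the complex. In KO against WT the bars lie between 0.26 and 0.30 for complexes I, III, IV and V and at 0.04 for complex II; no point is filled in KO against Het.

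Some nuclear subunits have names outside the patterns. Of 4 listed, 2010107E04Rik, a small proteolipid of ATP synthase, was called in both mutants, at 456 RPKM in WT, 576 in Het and 607 in KO (q = 0.0405 and 0.0138 in the authors' deposited tables). Cyc1, which is cytochrome c1, Ndufab1, the acyl carrier protein, and Usmg5, another small subunit of ATP synthase, were not called, with KO log2 differences of 0.13, 0.04 and 0.23.

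The library kit used does not mark strand, so reads of overlapping genes cannot be told apart. In the GENCODE annotation, 23 of the 82 members share exon bases with another gene, including 7 of the 25 called in KO and 1 of the 5 called in Het. The 7 are Ndufa2 (with Tmco6), Ndufa3 (Tfpt), Ndufb2 (Braf among others), Ndufs3 (Kbtbd4), Ndufs6 (Mrpl36), Atp5l (Gm30934) and Atp5o (Donson among others). The values of these genes are less certain than those of the others for that reason.

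Most called members were among the shorter genes of the chain, and all were abundant. All 25 called in KO and all 5 called in Het were among the 73 members with at least 50 RPKM in WT, and none of the 9 below that level was called. The members' annotated transcripts had a median of 737 nt, against 2762 nt for genes of at least 1 RPKM. Over the 73 members, Spearman's rho between transcript length and the log2 difference was -0.54 in Het and -0.57 in KO. This is a description across genes, which share libraries and normalization. The same rho over all other genes was -0.26 in Het (n = 12897) and -0.24 in KO (n = 12892). With the longest transcript of each gene in place of the typical one, the members' rho was -0.46 in Het and -0.44 in KO.

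Divided by length into a shortest group of 24 genes (321.5 to 599 nt), a middle group of 25 (606 to 1001 nt) and a longest group of 24 (1046 to 2900 nt), the members had 15, 7 and 3 calls in KO. Their median log2 differences were 0.37, 0.28 and 0.14. Other genes of the same lengths were also called higher often. Of the 65 other genes of at most 500 nt, 17 were called higher in KO (26.2%, median log2 difference 0.29), beside 8 of 12 members (median 0.39). From 500 to 750 nt, 22.7% of other genes were called (median 0.21), beside 13 of 32 members (median 0.31). From 750 to 1000 nt it was 13.5% of other genes, beside 1 of 11 members, and from 1000 to 1500 nt 9.24%, beside 2 of 11. From 1500 to 2500 nt it was 6.01%, beside 1 of 12 members, and from 2500 to 4000 nt 5.92%, beside 0 of 4. In Het, 3 of 12 members of at most 500 nt were called, beside 14.1% of other genes. From 500 to 750 nt it was 0 of 32 members, beside 9.14%. From 750 to 1000 nt it was 0 of 11, beside 5.17%, and from 1000 to 1500 nt 0 of 11, beside 3.67%. From 1500 to 2500 nt it was 2 of 12 members, beside 3.87%, and from 2500 to 4000 nt 0 of 4, beside 4.15%. Complex II had the longest transcripts, with a median of 1612 nt, while complexes I, III, IV and V had medians of 782, 520, 626 and 748 nt. When each gene's log2 difference was taken relative to other genes of its length bin, an alternative added after the data were seen, the members' median fell to 0.10 in KO and 0.06 in Het. In KO the medians were then 0.10 for complex I, -0.02 for complex II, 0.13 for complex III, 0.10 for complex IV and 0.09 for complex V. In Het they were 0.05, 0.09, 0.02, 0.06 and 0.07 in the same order, so every complex median against WT moved by over 1.5 times.

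**Figure D3:**
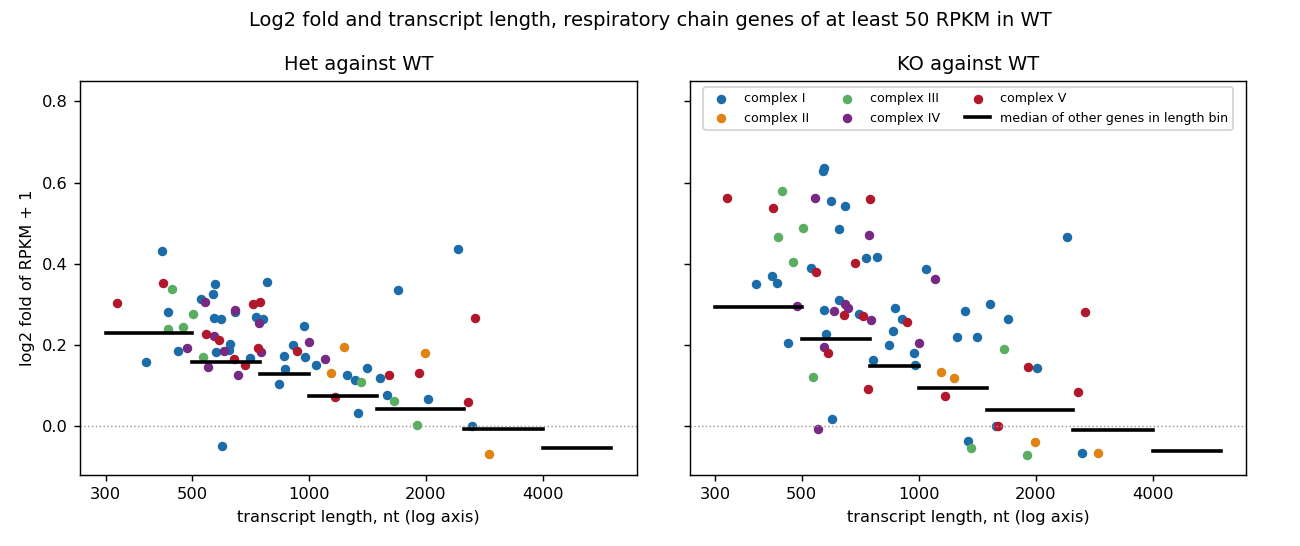
Log2 difference of RPKM + 1 against transcript length (log axis, nt) for the 73 genes of at least 50 RPKM in WT, coloured by complex, in Het and KO against WT, with black lines at the median of all other genes in each length bin. In KO the line is at 0.29 for other genes of at most 500 nt and at 0.04 from 1500 to 2500 nt, and the points also tend to be lower at greater lengths, with Ndufb2 high among the long genes.

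In KO, genes that were both abundant and short were frequently called, whether in the chain or not, while in Het the members among them were called at a lower share than the other genes. Among genes of at least 100 RPKM in any genotype and at most 1000 nt, 22 of 47 members were called higher in KO. So were 92 of 186 other genes (49.5%). A gene could pass this minimum through a higher mutant value alone, which favours calls of higher in both sets. Without the cytosolic ribosomal protein genes it was 40 of 129 (31.0%). In Het it was 3 of 47 members, 45 of 186 other genes (24.2%) and 19 of 129 without the ribosomal genes (14.7%). The part of length and level in the members' calls was not tested.

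Other large families of housekeeping genes gave different shares. Of 79 cytosolic ribosomal protein genes (median 370 RPKM in WT and 776 nt), which make the ribosomes of the cytoplasm, 65 were called higher in KO (82.3%) and 31 in Het, with median log2 differences of 0.50 and 0.31. Of 77 mitochondrial ribosomal protein genes (median 24.6 RPKM and 1223 nt), which translate the chain's mitochondrially encoded subunits, 12 were called in KO (15.6%) and 2 in Het. Of 38 proteasome genes (median 78.2 RPKM and 1398.5 nt), 2 were called in KO (5.26%) and 0 in Het. Of all genes, 6.84% were called higher in KO and 3.99% in Het. The proteasome counts and the mitochondrial ribosomal count in Het (2.60%) are near those shares and are no result about these families. At an unadjusted p below 0.05 in the authors' deposited tables, 9 of the proteasome genes were higher in KO (23.7%) and 2 in Het (5.26%), against 13.5% and 9.34% of all genes. The last 2 families are thus longer and less abundant at their medians than the chain's genes. The members' 30.5% in KO lay between those of the 2 kinds of ribosomal gene. No test of the difference between families was run.

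**Figure D4:**
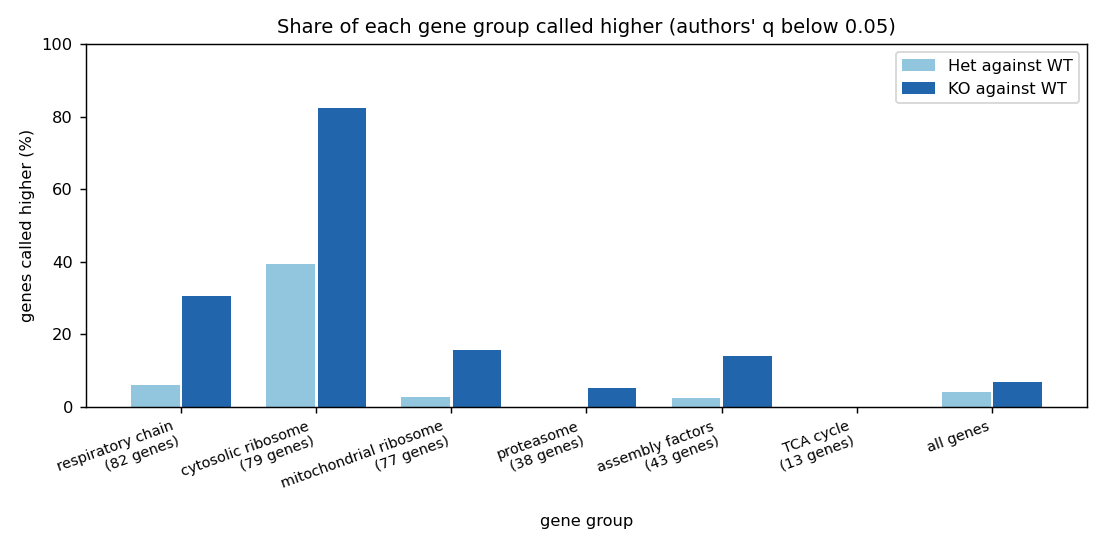
Percent of genes called higher (q below 0.05 in the authors' deposited tables) in Het and in KO against WT, for the respiratory chain names, 5 other gene groups and all genes, with bars from 0. In KO the bars stand at 30.5% for the chain, 82.3% for the cytosolic ribosome, 15.6% for the mitochondrial ribosome and 6.84% for all genes.

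Smaller shares than the chain's 30.5% in KO were called among genes that serve the chain without being part of it. Of 43 assembly factors, which build the complexes, 6 were called higher in KO (13.95%, against 6.84% of all genes) and 1 in Het (2.33%, against 3.99%). Uqcc2, needed for complex III, rose from 116 RPKM in WT to 184 in KO, and Coa3, which promotes synthesis and assembly of complex IV, from 63.1 to 89.7. Ndufaf2, a chaperone of complex I, rose from 18.8 to 27.3 RPKM and Pet100, of complex IV, from 12.3 to 18.1. Coa3 was the 1 called in Het, at 83.1 RPKM. Of 11 genes for carriers and related proteins, 2 were called higher in KO (18.2%, against 6.84% of all genes). Atpif1, the inhibitor of ATP synthase, rose from 398 to 535 RPKM in KO and Mpc2, of the mitochondrial pyruvate carrier, from 65.5 to 85.8. None of the 11 was called in Het, where 2 were higher at an unadjusted p below 0.05 in the authors' deposited table (18.2%, against 9.34% of all genes). Medians were 13.9 RPKM in WT and 1673 nt for the assembly factors, and 157 RPKM and 1388.5 nt for the carriers. The members' medians were 147 RPKM and 737 nt, and the part of length and level in these shares was not tested.

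None of 13 citric acid cycle genes was called in either mutant against WT, and none had an unadjusted p below 0.05 in the authors' deposited tables. Their median log2 differences were 0.04 in Het and -0.04 in KO. Of 12 genes for the synthesis of coenzyme Q, the electron carrier between complexes I, II and III, none was called. In the authors' deposited tables, 1 of them was higher in Het at an unadjusted p below 0.05 and 0 in KO. Of all genes, 3.99% were called higher in Het and 6.84% in KO, and 9.34% and 13.5% were higher at that unadjusted level. In lists of 13 and 12 genes, counts this low are near those shares and are not a result about either list.

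Among 14 transcriptional regulators of respiratory genes, Esrra, a nuclear receptor that activates them, rose from 14.4 RPKM in WT to 23.5 in KO (q = 0.000987 in the authors' deposited table). Ppargc1a, the coactivator PGC-1alpha, fell from 10.2 RPKM in WT to 7.96 in Het (q = 0.0344 in the authors' deposited table). It was higher in KO than in Het, at 11.2 against 8.02 RPKM (q = 0.0335 in the authors' deposited table). No other regulator on the list was called in any comparison. The 1 of 14 called higher in KO (7.14%) is near the 6.84% of all genes, so these are values of single genes and not a result about the list.

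The promoters of the chain are known for motifs of NRF1, of ETS factors such as GABPA, and of YY1. RefSeq promoters (GRCm38.p6), from 250 bases before to 50 after the start, were matched for 65 of the 82 members and searched on both strands. The NRF1 letters GCGCANGCG were in 20 of 65 (30.8%), against 14.8% of genes of at least 1 RPKM and 7.03% of all 27025 promoters. The ETS letters CCGGAAG were in 16 (24.6%, against 18.7% of genes of at least 1 RPKM and 9.93% of all promoters). The YY1 letters AAGATGGCG were in 7 (10.8%, against 3.35% and 1.64%), and the ESRRA letters CAAGGTCA in 4 (6.15%, against 1.36% and 1.76%). TATAAA was in 6 (9.23%, against 8.58% and 15.7%). Among the NRF1, ETS and YY1 motifs, no match of 1 overlapped a match of another, and 5 pairs of matches of the same motif overlapped. Overlaps with the ESRRA letters and TATAAA were not counted. At least 1 of the NRF1, ETS or YY1 motifs was in 14 of 23 matched members called in KO (60.9%) and in 21 of 42 not called (50.0%). The same held for 32.2% of genes of at least 1 RPKM, and the difference between called and uncalled members was not tested.

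The 250 bases before the start of 3 members are printed to show the NRF1 letters, in capitals, in genes with large and small differences. Atp5k (chr5:108434400-108434649, minus strand) and Ndufs6 (chr13:73328483-73328732, minus) were called in KO, with log2 differences of 0.56 and 0.63. Sdha (chr13:74350241-74350490, minus) was not called, with -0.07.
Atp5k: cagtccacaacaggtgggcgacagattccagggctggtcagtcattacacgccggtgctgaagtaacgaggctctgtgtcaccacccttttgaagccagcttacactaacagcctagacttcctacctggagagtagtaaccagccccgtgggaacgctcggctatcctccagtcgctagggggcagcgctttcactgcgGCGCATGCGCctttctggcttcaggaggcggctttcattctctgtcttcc
Ndufs6: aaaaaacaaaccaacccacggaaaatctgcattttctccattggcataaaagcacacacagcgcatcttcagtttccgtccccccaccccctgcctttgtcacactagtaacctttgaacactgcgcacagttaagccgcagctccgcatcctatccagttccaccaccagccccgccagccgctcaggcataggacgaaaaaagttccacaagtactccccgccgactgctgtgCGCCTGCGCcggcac
Sdha: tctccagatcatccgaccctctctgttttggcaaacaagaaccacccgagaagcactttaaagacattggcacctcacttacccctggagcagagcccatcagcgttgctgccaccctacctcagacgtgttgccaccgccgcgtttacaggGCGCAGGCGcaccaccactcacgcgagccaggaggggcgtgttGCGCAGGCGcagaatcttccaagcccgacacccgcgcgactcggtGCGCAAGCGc
Atp5k has 2 overlapping matches that begin 50 and 49 bases before the start, Ndufs6 has 1 that begins 15 bases before it, and Sdha has 3, at 98, 55 and 10 bases. The called and the uncalled gene thus both carry the letters, which are no measure of binding.

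Markers of several cell types, cortical neurons included, differed between the genotypes as well. Of all genes, 3.99% were called higher and 5.11% lower in Het, and 6.84% and 7.67% in KO, against WT. In KO against Het the shares were 0.929% and 0.981%. All 21 striatal projection neuron markers were called higher in both mutants, and their summed RPKM was 209 in WT, 804 in Het and 862 in KO. Of 11 measured choroid plexus markers, 10 were called lower in each, with sums of 2220, 341 and 116 RPKM. Of 12 immature neuron markers, 8 were called higher in each, with sums of 1375, 1868 and 2327 RPKM. In KO against Het, 6 of the 12 were above 0 and 1 was called higher, with a median log2 difference of 0.01. The rise of the sum from Het to KO was thus not shared across the list. The 10 oligodendrocyte markers summed to 1161, 1588 and 918 RPKM, with 2 called higher in Het and 3 lower in KO, and 8 called lower in KO against Het. The 7 parvalbumin interneuron markers summed to 139, 148 and 131 RPKM, with 1 called higher and 1 lower in Het, and 1 higher and 3 lower in KO. The 1 called higher in both was Tac1, at 11.9 RPKM in WT, 33.1 in Het and 27.3 in KO. The higher sum in Het rests on this gene. Only 2 of these 7 had a log2 difference above 0 in each mutant, and the medians were -0.19 in Het and -0.15 in KO. The 4 measured erythroid markers summed to 67.1, 130 and 77.3 RPKM, with 2 called higher in Het and 2 lower in KO against Het. The 10 cortical projection neuron markers summed to 1669, 1446 and 1294 RPKM, so the labelled tissue's defining markers were present in every genotype. Of these 10, 3 were called higher and 1 lower in Het, and 2 higher and 1 lower in KO. The part of these markers in the respiratory chain values was not tested.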

How the data were processed

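RNA was measured in the cortex of WT, Het and KO mice, 4 libraries each, as TruSeq RNA v2 paired-end libraries, per the labels' protocols. Build mm9 and the tools Cuffdiff 2.2.1, TopHat2 2.0.13 and CASAVA 1.4 are listed, per the submitters' processing notes. Their roles and the annotation used are not given in the sources consulted. The authors deposited 3 pairwise tables of RPKM per genotype, with the libraries of a genotype pooled, per the file headers. The deposited p-values and q-values, per the file headers, come from the authors' own test. No column was left unmapped (0). Depth per library is unknown.

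No test was run here: calls are the authors' q below 0.05, in genes of at least 1 RPKM in any genotype that the authors tested. Log2 differences use a pseudocount of 1. WT and Het values printed together come from the Het and WT table and KO values from the KO and WT table. The same genotype's value differed between tables by at most 0.695% among members. Members and gene lists were chosen with earlier results of these data known. Any member may be named. Values for all genotypes are given for members called in any table, the highest and lowest of each complex, and isoform families. From other lists, at most 4 called genes per list and table are named, by smallest q and then largest log2 difference. Transcript and 3′ UTR lengths come from GENCODE M21 (GRCm38), matched by gene name (82 of 82 members); no table coordinate was used. Promoters and the microRNA come from RefSeq. Counting and adjustment steps were tested on simulated data. Python 3.11.15, pandas 2.3.3, numpy 2.4.6, scipy 1.17.1 and matplotlib 3.10.9 were used. Alternatives were other RPKM minimums, thresholds, pseudocounts, centrings, adjustments and member definitions.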

Additional observations from a re-analysis of the deposited data

How the results depend on the processing

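The 0 calls lower in each comparison, the 0 calls in KO against Het and the positive sign of the members' medians held under every alternative run: RPKM minimums of 5 or none, pseudocounts of 0.1 and 0.01, recentring on all genes, adjustment over the 3 tables together, and members restricted to textbook subunits or widened by 4 further subunits. A count or median within 1.5 times the reported value was taken as unmoved. With the authors' q below 0.01 the calls fell from 25 to 14 in KO and from 5 to 1 in Het. With an absolute log2 difference of at least 0.5 added to q below 0.05 they fell to 9 in KO and 0 in Het, by construction, since the folds are small. Adjusted over the 3 tables together, 22 were called in KO. Relative to other genes of the same length bin, a setting chosen after the data were seen, the members' median log2 differences were 0.0554 in Het, 0.0988 in KO and 0.0332 in KO against Het, and that of complex II in KO changed sign, from 0.0406 to -0.0163. Of the other complex medians, all against WT and all but that of complex II in KO against Het moved by over 1.5 times, with no change of sign. No paired analysis was possible because the tables pool the libraries of a genotype into 1 value. For the same reason no library could be left out in turn, and pooled RPKM without depth gives no limit of detection.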
